A study of Mus musculus with 40 samples.

Results

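The mitochondrially encoded genes are the genes that the mouse gene table places on chromosome M, the circular mitochondrial DNA. All genes with that chromosome entry were taken, which gave 37 of the 56748 genes in the table: 13 mRNA genes, 2 rRNA genes and 22 tRNA genes. The study asked what mouse pluripotent cells lose when they lack every lamin, the lamin B receptor (LBR), or both, in 40 total-RNA libraries made after removal of rRNA with Ribo-Zero Plus, whose probes cover mitochondrial as well as cytoplasmic rRNA. The libraries fell into 8 groups, 4 genotypes each measured as mouse embryonic stem (mES) cells kept in 2i and LIF and as epiblast-like cells (EpiLCs) made from them by 48 h with FGF and Activin. Wild-type (WT) cells of a littermate line had 8 libraries per stage, and LBRKO, TKO and QKO cells had 4 each.

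LBRKO cells carried CRISPR-made indels in exon 2 of Lbr, and the clone behind each LBRKO library is not stated. TKO cells lacked Lmna, Lmnb1 and Lmnb2, the 3 lamin genes. QKO cells were 1 clone made from the TKO line by disrupting Lbr, so all QKO libraries descend from a single cell. The study's karyotypes recorded trisomy 8 in TKO cells with loss of Y in some, and a part of the WT cells with loss of Y, some of them also with trisomy 6 and 8. Each replicate was a separate well, so every p-value below measures the spread between wells of a line and not between independently derived lines.

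Mitochondrial DNA is transcribed from both strands as long RNAs that run over most of the circle. The transcript that reads the heavy strand carries both rRNAs, most tRNAs and nearly all mRNAs, and the one that reads the light strand carries the mRNA mt-Nd6 and the remaining tRNAs, here 8. Most tRNAs sit between the other genes, and their excision frees the mRNAs and rRNAs. The mRNAs encode core subunits of complexes I, III, IV and V of the respiratory chain, the rRNAs form the mitochondrial ribosome with proteins encoded in the nucleus, and complex II is made wholly from nuclear genes.

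Part of the mitochondrial genome is also present in the nucleus, and the read counts of some members depended on it. On GRCm39 the stretch of the minus strand at chr1:24650616-24655269 matched positions 6390 to 11042 of chromosome M over 4653 mitochondrial bases, with 2 mismatches and 1 gap base, an identity of 99.936%. The 80 bases around each end of the match are shown because they set which genes share reads. Capitals in a nuclear sequence mark the bases that differ from the mitochondrial one.
left edge, mitochondrial: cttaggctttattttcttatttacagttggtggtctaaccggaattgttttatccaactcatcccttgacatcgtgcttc
left edge, nuclear: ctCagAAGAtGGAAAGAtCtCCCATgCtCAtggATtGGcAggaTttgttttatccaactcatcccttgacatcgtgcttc
right edge, mitochondrial: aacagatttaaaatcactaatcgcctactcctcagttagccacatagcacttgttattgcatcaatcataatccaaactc
right edge, nuclear: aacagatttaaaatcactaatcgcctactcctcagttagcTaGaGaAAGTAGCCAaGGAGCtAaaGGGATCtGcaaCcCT
The left edge spans chrM:6350-6429 and chr1:24655230-24655309 and lies inside mt-Co1, and the right edge spans chrM:11003-11082 and chr1:24650576-24650655 and lies inside mt-Nd4. The windows differed at 27 and 28 positions, and the last capital of the left edge is a mismatch inside the match. Between the edges lie mt-Co2, mt-Atp8, mt-Atp6, mt-Co3, mt-Nd3 and mt-Nd4l.

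The study counted reads in 2 ways, once keeping only reads with a single alignment and once allowing up to 100 alignments per read (the multimapped table). For the 6 mRNAs inside the copied stretch, the single-alignment counts summed over 40 libraries were between 1.16% (mt-Atp6) and 7.67% (mt-Nd4l) of the multimapped counts, with a median of 2.67%. They were 85.1% for mt-Co1 and 66.5% for mt-Nd4, which extend past the edges. The 5 mRNAs outside it ranged from 68.6% (mt-Nd6) to 100.2% (mt-Cytb, where the single-alignment count was slightly the larger), and the rRNAs stood at 99.5% (mt-Rnr1) and 93.7% (mt-Rnr2). Among mRNAs the heaviest losses thus lay inside the copied stretch. Many tRNAs lost reads too: the 15 tRNAs with no base in a near-identical nuclear copy found here ranged from 0.150% to 90.2% with a median of 3.62%, and why was not tested. The tRNA genes are 59 to 75 bases long, and whether their multimapped reads also covered adjoining genes was not tested.

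**Figure D1:**
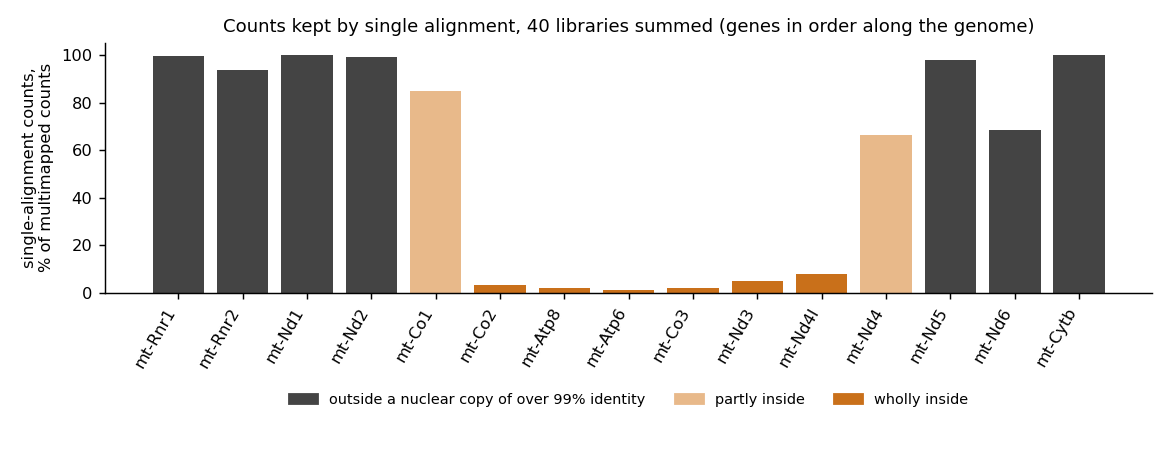
Single-alignment counts as a percent of multimapped counts for each mitochondrial mRNA and rRNA in order along the genome (shading, overlap with the nuclear copy), summed over 40 libraries. The 6 mRNAs inside the nuclear copy stand at 7.67% or lower, and mt-Nd1 and mt-Cytb stand near the full count.

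Multimapped reads were divided between each mitochondrial gene and its annotated nuclear copy. The nuclear copy of mt-Co3, Gm28437, received 72.4% of the reads that the pair took in the multimapped table. The matching shares were 55.8% for Atp6-ps beside mt-Atp6, 70.8% for Gm28661 beside mt-Co2, 84.8% for Gm28438 beside mt-Nd3 and 79.5% for Gm10222 beside mt-Nd4l, but 1.78% for Gm28439 beside mt-Nd4 and 0.297% for Gm29216 beside mt-Co1. Reads of the 2 loci cannot be told apart where their sequences match. Values are therefore given below on 2 scales, both as CPM (counts per 1000000 counts of a library, with library totals scaled by edgeR's TMM factors). The single-alignment scale is used unless stated, and on the summed scale the multimapped counts of each mitochondrial gene and its chromosome 1 copy were added. The summed scale was chosen after the data had been seen and would include any transcript of the nuclear copy itself. mt-Atp8, inside the copied stretch, has no annotated nuclear partner, so its reads could not be summed. Its values on this scale are multimapped counts alone, as are those of the tRNAs, which had no partner added either.

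Library depth ran from 22594640 to 48863506 gene counts, with a median of 33041104. WT replicates 1 to 4 had 27696460 to 33062951 counts in mES cells and 25360443 to 33516247 in EpiLCs, near the depth of TKO and QKO libraries (22594640 to 33574993), whereas WT replicates 5 to 8 had 39434595 to 46631348 and 44442302 to 48863506, near that of LBRKO libraries (39734858 to 48139359); the labels name no batches. Lmnb1 stood at 0.535 to 15.5 CPM in the 16 libraries made without it and at 480.8 to 568.6 CPM in the other 24, and Lmnb2 at 1.02 to 4.71 against 87.2 to 120.1 CPM. Lmna (6.95 to 21.0 against 9.28 to 82.2 CPM) and Lbr (145.2 to 403.1 against 332.8 to 512.6 CPM) overlapped, and indels need not remove a transcript, so Lbr RNA does not check the LBR genotype. The summed CPM of 8 naive pluripotency markers was 4309 to 5104 in WT mES cells and 120.8 to 186.7 in WT EpiLCs, and 7 primitive endoderm markers summed to 22.1 CPM at most in any library.

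Mitochondrial transcripts were a small part of each library. They took between 0.505% and 1.76% of the gene counts, with a median of 0.762%. The mRNAs alone took 0.481% to 1.56%, the rRNAs 0.0114% to 0.187% after depletion, and the tRNAs 0.00355% to 0.00837%. By group, the mean share of all 37 genes was 0.749% ± 0.134 (SD, n = 8) in WT mES cells, 0.787% ± 0.123 (SD, n = 4) in LBRKO, 0.931% ± 0.0760 (SD, n = 4) in TKO and 1.14% ± 0.185 (SD, n = 4) in QKO mES cells. In EpiLCs it was 0.656% ± 0.0881 (SD, n = 8) in WT, 0.779% ± 0.141 (SD, n = 4) in LBRKO, 0.685% ± 0.0252 (SD, n = 4) in TKO and 1.22% ± 0.367 (SD, n = 4) in QKO cells.

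The 4 QKO EpiLC libraries were unequal. Their mitochondrial shares were 1.76%, 1.14%, 0.929% and 1.06% in replicates 1 to 4, and each was above the highest of the 8 WT EpiLC libraries (0.799%). The QKO mES libraries stood at 1.23%, 1.00%, 0.977% and 1.36%. rRNA set replicate 1 of the QKO EpiLCs further apart than mRNA did: its rRNA share was 0.187%, against 0.0687%, 0.0415% and 0.0496% in replicates 2 to 4. TKO EpiLC replicate 1 also stood apart in rRNA (0.127% against 0.0320%, 0.0270% and 0.0398%) but not in total mitochondrial share. Since QKO EpiLC replicate 1 stood apart, the calls against WT and TKO EpiLCs are also given without it. In bulk libraries, fewer cells of a type and less RNA per cell cannot be told apart, and a share of counts also moves with all other RNA in the library.

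**Figure D2:**
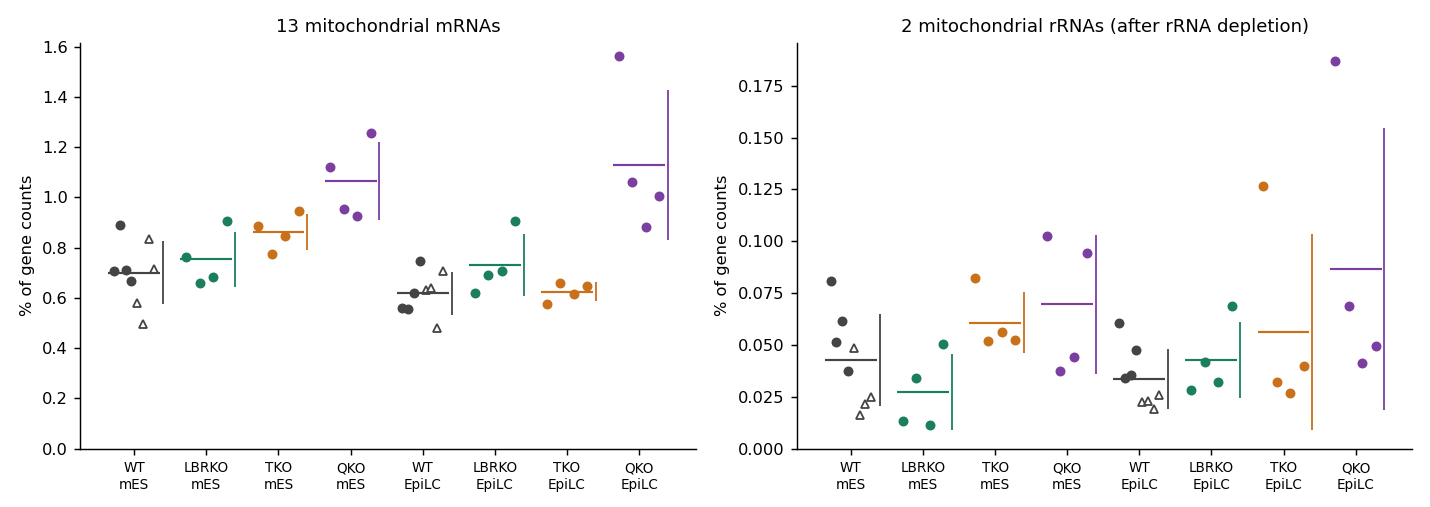
Percent of gene counts on the 13 mitochondrial mRNAs and on the 2 rRNAs in each of 40 libraries (circles, replicates 1 to 4; open triangles, WT replicates 5 to 8; bar, group mean; line, SD). QKO EpiLC replicate 1 has the highest rRNA share, 0.187%, and TKO EpiLC replicate 1 follows within its stage at 0.127%.

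Levels per kilobase on the summed scale differed widely among members carried by the same long transcripts. In WT mES cells mt-Co1, the catalytic subunit of complex IV (M, 5328 to 6872), had the highest mean of all mRNAs and rRNAs at 3105 ± 576.6 CPM per kilobase (SD, n = 8). mt-Co3 followed at 1178, mt-Atp6 at 768, mt-Nd1 at 758, mt-Co2 at 648, mt-Cytb at 570, mt-Nd3 at 451 and mt-Nd4 at 347 CPM per kilobase. The complex I mRNAs mt-Nd2 (252), mt-Nd5 (243), mt-Nd4l (111) and mt-Nd6 (91.2 CPM per kilobase) were at the low end, with mt-Atp8 at 134 from multimapped counts alone. mt-Nd6 was the lowest of the mRNAs and the only one on the light-strand transcript. The rRNAs, normally far above the mRNAs, stood at 237 (mt-Rnr1) and 118 CPM per kilobase (mt-Rnr2) in these depleted libraries, so their level is what depletion left.

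In WT EpiLCs mt-Co1 stood at 2785 ± 447.6, mt-Co3 at 1231 ± 109, mt-Atp6 at 876 ± 151, mt-Nd1 at 638 ± 93.5 and mt-Cytb at 542 ± 78.1 CPM per kilobase (SD, n = 8). In QKO EpiLCs mt-Co1 stood at 3549 ± 479.7 (SD, n = 4), mt-Atp6 at 1810 ± 654, mt-Nd1 at 1390 ± 600, mt-Cytb at 1357 ± 380 and mt-Co3 at 1232 ± 160 CPM per kilobase. Without QKO EpiLC replicate 1 these were 3322, 1489, 1096, 1169 and 1162 CPM per kilobase in the same order of genes. mt-Co1 was thus the highest in both groups, and the mean of mt-Co3 was close in the 2 groups while that of mt-Atp6 was not. mt-Co1 made up 62.2% ± 3.29 (SD, n = 8) of all mitochondrial mRNA counts in WT EpiLCs and 40.7%, 49.5%, 51.0% and 50.2% in QKO EpiLC replicates 1 to 4, while the means of the other 6 groups were between 57.5% and 63.6%.

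Between stages in WT cells, the mitochondrial mRNAs and rRNAs did not pass the test and some tRNAs fell. Of 27 members tested, 0 were higher in EpiLCs and 6 were lower, all of them tRNAs, where 35.8% of 23399 genes tested were higher and 28.6% lower. The share of members lower thus did not exceed that of all genes. The median log2 fold change was -0.38 for the members and 0.07 for all genes tested. mt-Tl1, the leucine tRNA that follows mt-Rnr2, ran from 1.54 to 5.66 CPM (median 3.34) in 8 WT mES libraries and from 0.811 to 2.64 CPM (median 1.22) in 8 WT EpiLC libraries, overlapping ranges with a log2 fold change of -1.34 ± 0.22 (SE, adjusted p = 1.36e-06). The tyrosine tRNA mt-Ty fell by 1.01 on the log2 scale (adjusted p = 8.71e-05), and the other 4 were mt-Tq, mt-Ta, mt-Tc and mt-Tn. With WT replicates 1 to 4 alone, mt-Tq, mt-Ta and mt-Tn did not pass (adjusted p = 0.299, 0.150 and 0.219).

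More tRNAs were tested on the summed scale, with the same direction, but there they had multimapped counts alone. Whether those counts are separate from the counts of adjoining genes was not tested. There 15 members were lower and 0 higher (29.4% of 25490 genes tested were lower on that scale), 14 of them among the 20 tRNAs tested. The phenylalanine tRNA mt-Tf, the first gene of the heavy-strand transcript, fell by 1.68 on the log2 scale and the tryptophan tRNA mt-Tw by 1.16. mt-Nd3 was the remaining member at -0.19. mt-Rnr1 and mt-Rnr2 differed by -0.38 and -0.26 on the single-alignment scale without passing.

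The asparagine and cysteine tRNAs, mt-Tn and mt-Tc, belong to a cluster of light-strand tRNAs where the origin of light-strand replication lies, and with the proline tRNA mt-Tp they had the most single-alignment counts of the tRNAs. Their sequences from the reference are shown because these 3 are the tRNAs with at least 10 CPM in a group, and because the stretch between mt-Tc and mt-Tn holds that origin. Capitals mark the anticodon in the tRNAs and, in the spacer, an inverted repeat of 8 bases.
mt-Tn: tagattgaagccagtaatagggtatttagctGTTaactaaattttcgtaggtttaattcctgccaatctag
mt-Tc: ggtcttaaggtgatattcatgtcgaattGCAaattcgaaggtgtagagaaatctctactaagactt
mt-Tp: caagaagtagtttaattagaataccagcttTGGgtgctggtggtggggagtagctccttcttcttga
between mt-Tc and mt-Tn: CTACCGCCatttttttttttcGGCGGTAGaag
They lie on GRCm39 at chrM:5089-5159, chrM:5192-5257, chrM:15356-15422 and chrM:5160-5191, all read from the minus strand. mt-Tc fell between the WT stages from 15.2 to 30.04 CPM (median 26.6) to 15.7 to 19.8 CPM (median 17.7), a log2 fold change of -0.44 (adjusted p = 6.83e-04). mt-Tn went from 6.61 to 14.0 CPM (median 12.4) to 7.15 to 10.2 CPM (median 8.90), or -0.41 (adjusted p = 0.0032). mt-Tp did not pass the test, at 11.0 to 20.9 CPM in WT mES cells and 16.0 to 23.0 CPM in WT EpiLCs.

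Loss of LBR alone moved few members. In LBRKO mES cells 1 of 27 members was higher and 0 lower, with 12.7% of all genes tested higher and 11.2% lower. That member was mt-Ty, at 2.11, 1.06, 1.63 and 1.53 CPM against 0.687 to 1.40 CPM (median 0.931) in WT mES cells, overlapping ranges with a log2 fold change of 0.75 ± 0.24 (SE, adjusted p = 0.017). It did not pass without LBRKO mES replicate 1 (0.56, adjusted p = 0.138) or replicate 3 (0.71, adjusted p = 0.0535), nor against WT replicates 1 to 4 alone (0.67, adjusted p = 0.0818). No member passed in LBRKO mES cells on the summed scale (edgeR, with 2 at an unadjusted p under 0.05), and DESeq2 on the single-alignment counts called 1. mt-Rnr1 ranged from 62.8 to 264.7 CPM in the 4 LBRKO mES libraries, within a WT range of 100.5 to 431.8 CPM except for 2 libraries at 80.3 and 62.8, and did not pass. Against WT replicates 1 to 4 alone it was the 1 member called, lower by a log2 fold change of -1.11 (adjusted p = 0.0464).

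In LBRKO EpiLCs 2 of 27 members were higher and 0 lower, with 11.0% of all genes higher and 14.2% lower. mt-Cytb, the mitochondrially encoded subunit of complex III (ENSMUSG00000064370.1, M, 14145 to 15288), stood at 776.9, 810.1, 913.6 and 1189 CPM against 558.3 to 846.7 CPM (median 662.7) in WT EpiLCs, a log2 fold change of 0.45 ± 0.14 (SE, adjusted p = 0.0142). mt-Nd1, a core subunit of complex I (M, 2751 to 3707), stood at 0.44 ± 0.16 (SE, adjusted p = 0.0355). Both rested on replicate 4, the highest in each case: without it mt-Cytb was at 0.30 (adjusted p = 0.142) and mt-Nd1 at 0.28 (adjusted p = 0.271). mt-Nd1 also missed the threshold without WT EpiLC replicate 2, 3, 5 or 7, at 0.41 to 0.42 (adjusted p = 0.0564 to 0.0649). Summing gave 4 members higher (11.3% of genes on that scale): these 2 and the tRNAs mt-Tv and mt-Tt.

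Loss of the 3 lamins also moved few members, and the difference from loss of LBR was not tested. In TKO mES cells 0 of 27 members passed in edgeR's quasi-likelihood test, 1 had an unadjusted p under 0.05 and DESeq2 called 0, where 8.09% of genes were higher and 13.2% lower. mt-Co1 (0.33, adjusted p = 0.047) and mt-Co3 (0.29, adjusted p = 0.027) were higher on the summed scale, with 8.07% of genes higher. mt-Rnr1 stood at 439.7, 281.1, 320.2 and 298.4 CPM in TKO mES cells against a WT median of 255.8 CPM, a log2 fold change of 0.46 that did not pass.

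In TKO EpiLCs 1 of 27 members was lower and 0 higher, with 10% of genes lower and 4.63% higher. This was the histidine tRNA mt-Th, which was near 0 everywhere, at 0.0441, 0.0355, 0.0382 and 0 CPM against 0.0588 to 0.545 CPM in WT EpiLCs. Its log2 fold change of -2.98 ± 0.87 (SE, adjusted p = 0.0152) was 0.03 (adjusted p = 0.978) in the multimapped table, where it had more reads. It was at -2.51 (adjusted p = 0.0715) without TKO EpiLC replicate 4. mt-Tl1 was the 1 member higher on the summed scale, at 0.62 (4.95% of genes). TKO EpiLC replicate 1 had 627.2 CPM of mt-Rnr1 and 634.4 CPM of mt-Rnr2 against 162.5 to 214.7 and 116.3 to 185.5 CPM in replicates 2 to 4, and neither rRNA passed (0.66 and 0.79).

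Loss of lamins and LBR together went with higher mitochondrial mRNAs in mES cells. In QKO mES cells 10 of 27 members were higher and 0 lower than in WT, with 21.0% of genes higher and 23.5% lower, and 1 of the 10 was past a fold of 2 (10.6% of all genes). The median was 0.50 for the members and 0.01 for all genes tested. mt-Nd6 (ENSMUSG00000064368.1, M, 13552 to 14070, minus strand), a complex I subunit, stood at 67.2, 55.2, 49.0 and 79.6 CPM against 23.2 to 45.8 CPM (median 35.9) in WT mES cells. All 4 QKO mES libraries were above all 8 WT libraries. The log2 fold change was 0.80 ± 0.26 (SE, adjusted p = 0.00955), or 0.67 (adjusted p = 0.056) without QKO mES replicate 4. Against WT replicates 1 to 4 alone mt-Nd6 did not pass (0.57, adjusted p = 0.131). It passed against the other WT replicates alone (1.06, adjusted p = 0.00761).

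mt-Cytb stood at 1143, 962.9, 915.1 and 1263 CPM in QKO mES cells against 450.7 to 869.4 CPM (median 704.8), a log2 fold change of 0.60 ± 0.14 (SE, adjusted p = 4.84e-04). mt-Nd1 was at 1554, 1036, 960.2 and 1545 CPM against 547.3 to 953.3 CPM, or 0.70 (adjusted p = 3.8e-04). mt-Nd6, mt-Cytb and mt-Nd1 were the 3 members called whose QKO and WT libraries did not overlap, a pattern that 12.2% of all genes showed. mt-Co1 had the smallest change of the mRNAs called, with 6227, 5857, 5666 and 7246 CPM against 3301 to 5678 CPM, overlapping by 1 library at a log2 fold change of 0.50 ± 0.12 (SE, adjusted p = 8.23e-04).

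The largest value, 1.41 ± 0.51 (SE, adjusted p = 0.0234) for the complex V subunit mRNA mt-Atp8, rested on 2.697, 0.460, 0.432 and 0.789 CPM, of which 2 libraries lay within the WT range of 0.152 to 0.622 CPM, and was 0.44 (adjusted p = 0.575) without replicate 1. On the summed scale mt-Atp8 had 0.89 and did not pass (adjusted p = 0.0521), while the other 12 mRNAs were all higher, from 0.27 for mt-Co3 to 0.87 for mt-Nd6. Among tRNAs mt-Tl1 was higher by 0.98 (adjusted p = 0.00121) and mt-Tc by 0.33 ± 0.13 (SE, adjusted p = 0.0379). mt-Tc missed the threshold without WT mES replicate 4, 6 or 8 or QKO mES replicate 1, 2 or 4, at 0.26 to 0.34 (adjusted p = 0.0598 to 0.111). In all 17 members were higher on the summed scale, where 20.9% of genes were. The rRNAs mt-Rnr1 (0.66, adjusted p = 0.175) and mt-Rnr2 (0.67, adjusted p = 0.214) did not pass, at 554.6, 210.5, 254.0 and 521.9 CPM for mt-Rnr1.

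Against TKO mES cells, from which they derive, QKO mES cells differed in 1 of 27 members, mt-Tl1, higher by 0.86 (adjusted p = 0.0345), with 9.16% of genes higher and 11.3% lower. Leaving out any 1 of the 4 TKO mES libraries or QKO mES replicate 1, 2 or 4 put it at 0.76 to 0.91 and above the 0.05 threshold (adjusted p = 0.054 to 0.1004). No member passed on the summed scale (edgeR, with 5 at an unadjusted p under 0.05). More members were called when only these groups were fitted or with a replicate block, and the counts are given in the closing section.

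QKO EpiLCs had the most members changed. Of 27 tested, 14 were higher and 0 lower than in WT EpiLCs, where 24.3% of all genes were higher and 30.5% lower, and 12 of the 14 were past a fold of 2 (13% of all genes). The median was 0.99 for the members and -0.01 for all genes tested. The members called were 11 mRNAs, both rRNAs and mt-Tl1, and for 7 of them all 4 QKO libraries were above all 8 WT libraries, a pattern shown by 15.7% of all genes. Scaling by library totals without TMM moved the median of all genes to 0.15 and the split of all calls to 7495 higher and 5391 lower, from 5682 and 7146. On that scaling 16 members were higher, with a median of 1.14.

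Complex I mRNAs were among those highest. mt-Nd6 stood at 168.5, 60.5, 50.1 and 60.7 CPM in QKO EpiLC replicates 1 to 4 against 19.7 to 33.6 CPM (median 24.5) in WT EpiLCs. Replicate 1 was far above the rest, yet all 4 QKO libraries exceeded every WT library, and the log2 fold change was 1.71 ± 0.25 (SE, adjusted p = 2.27e-07). mt-Nd2 (M, 3914 to 4951), chosen here after its values were seen, stood at 1148, 605.3, 469.2 and 522.1 CPM against 179.6 to 322.9 CPM (median 216.6), or 1.52 ± 0.20 (SE, adjusted p = 2.52e-08). mt-Nd5 (1.13), mt-Nd1 (1.10) and mt-Nd4 (1.00) were also higher with no overlap, mt-Nd1 at 2345, 1228, 962.7 and 1159 CPM against 551.3 to 792.4 CPM. mt-Nd4l was at 1.24 and mt-Nd3 did not pass on this scale.

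In complex III, mt-Cytb stood at 2362, 1520, 1333 and 1442 CPM against 558.3 to 846.7 CPM (median 662.7), with no overlap and a log2 fold change of 1.30 ± 0.14 (SE, adjusted p = 1.11e-10). Complex IV mRNAs differed among themselves. mt-Co1 was at 5786, 4786, 4260 and 4665 CPM against 2895 to 4708 CPM (median 4064), so 2 of 4 QKO libraries lay within the WT range, and its change was the smallest of those called, 0.29 ± 0.12 (SE, adjusted p = 0.0385). It missed the threshold without WT EpiLC replicate 1, 2, 3 or 7 or QKO EpiLC replicate 1 or 2, at 0.20 to 0.30 (adjusted p = 0.0512 to 0.217).

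The complex IV and V mRNAs inside the nuclear copy are better read on the summed scale. mt-Co3 had 1130, 994.2, 843.3 and 896.6 CPM in QKO EpiLCs and 819.8 to 1074 CPM (median 990.4) in WT EpiLCs, a log2 fold change of 0.00 ± 0.10 (SE, adjusted p = 0.993), and was the 1 mRNA of 13 that did not pass. mt-Co2, also a complex IV subunit, had 1203, 725.7, 621.1 and 710.7 CPM against 257.4 to 466.4 CPM (median 367.4), with no overlap, or 1.13 (adjusted p = 2.31e-07). The complex V mRNA mt-Atp6, which shares 1 base position with mt-Co3 at its end, had 1888, 1105, 897.9 and 1039 CPM against 463.5 to 761.1 CPM (median 571.5), or 1.05 (adjusted p = 1.12e-06). On this scale neighbouring genes of the copied stretch had unlike values, near those of all genes for mt-Co3 and well above them for mt-Atp6. Without the copy added, the multimapped table called mt-Co3 lower, at -0.47. The copies had received 72.4% (mt-Co3) and 55.8% (mt-Atp6) of the reads of each pair, so the summed values are not those of the mitochondrial mRNAs alone.

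mt-Atp8 (177.9, 88.3, 47.2 and 67.3 CPM against 6.81 to 37.8 CPM) had the highest log2 fold change on the summed scale, 2.05 ± 0.37 (SE, adjusted p = 9.81e-06). That value holds multimapped counts alone, so it does not rank on equal terms with the mRNAs that had a copy added. mt-Nd3 was at 0.44 (adjusted p = 1.72e-04) from 200.6, 193.8, 171.7 and 178.5 CPM against 120.1 to 162.0 CPM. In all 28 of 35 members tested were higher, 0 were lower, and 23 were past a fold of 2, with 24.3% of genes higher on that scale. They were 12 of 13 mRNAs, both rRNAs and 14 of 20 tRNAs. Whether the tRNA counts on this scale are separate from those of adjoining genes was not tested.

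**Figure D3:**
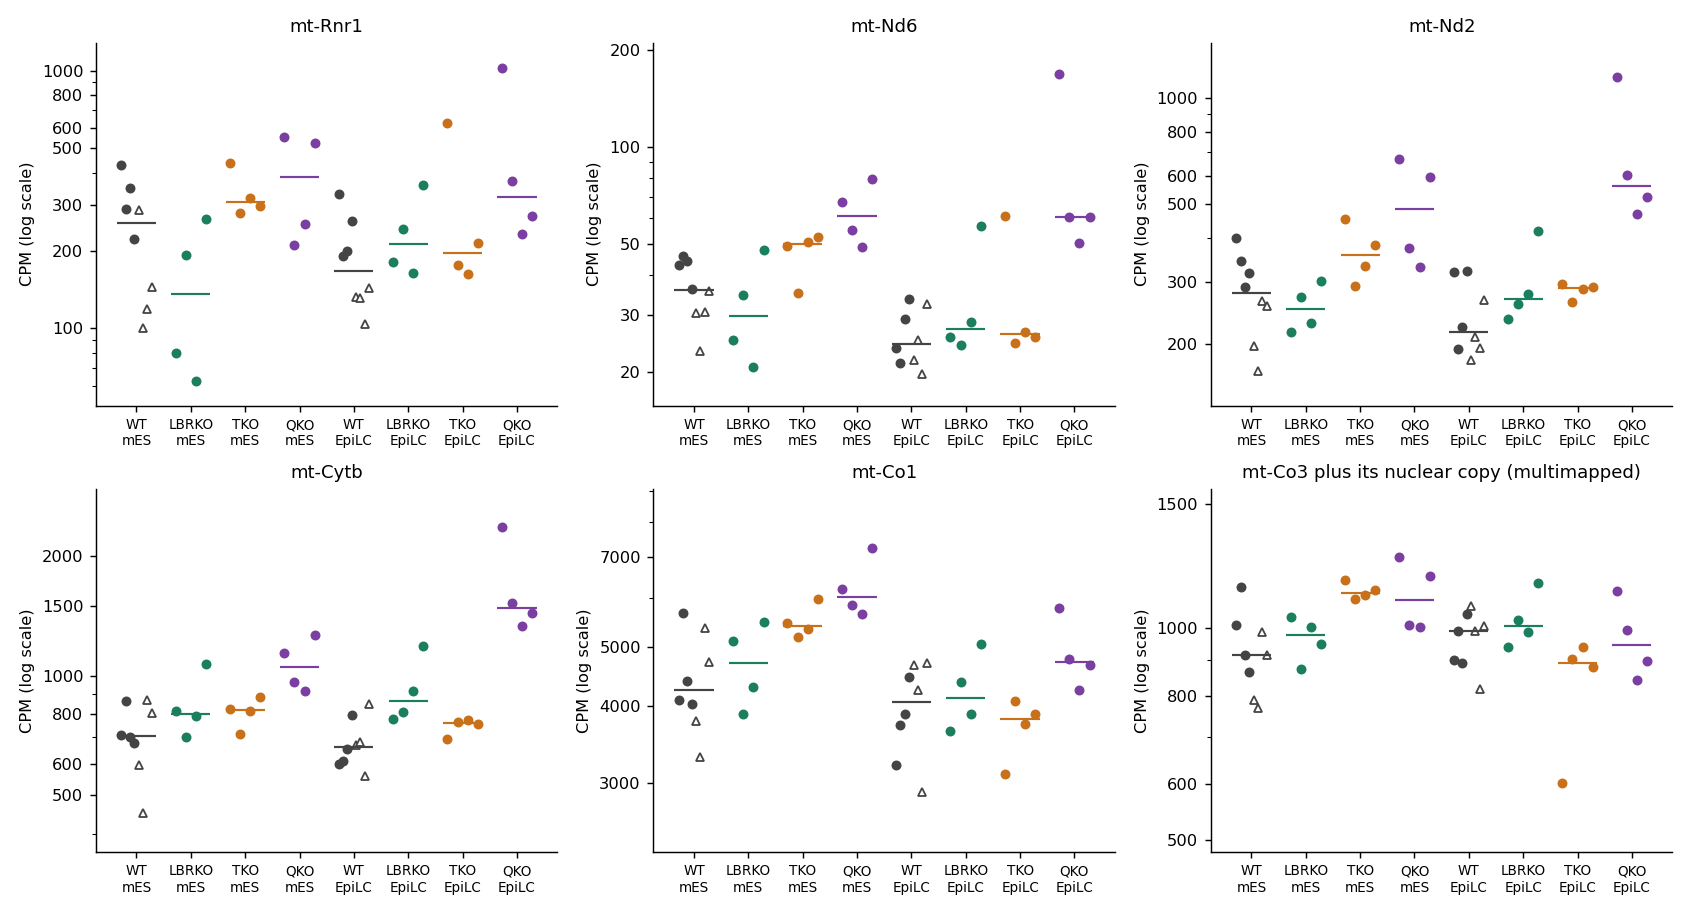
CPM on a log axis in each of 40 libraries for mt-Rnr1, mt-Nd6, mt-Nd2, mt-Cytb and mt-Co1 (single-alignment counts) and for mt-Co3 plus its nuclear copy (circles, replicates 1 to 4; open triangles, WT replicates 5 to 8; bar, median). All 4 QKO EpiLC libraries lie above all WT EpiLC libraries for mt-Nd6, mt-Nd2 and mt-Cytb, while for mt-Co3 they lie between 843.3 and 1130 CPM, across the WT range.

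The rRNAs were called in QKO EpiLCs but depended on 1 library. mt-Rnr1, the small-subunit rRNA (ENSMUSG00000064337.1, M, 70 to 1024), stood at 1026, 371.1, 232.9 and 273.5 CPM against 103.6 to 331.7 CPM (median 166.9), with 2 of 4 QKO libraries inside the WT range and a log2 fold change of 1.35 ± 0.39 (SE, adjusted p = 0.00333). mt-Rnr2, the large-subunit rRNA (M, 1094 to 2675), stood at 676.9, 255.2, 159.7 and 185.4 CPM against 89.5 to 283.5 CPM (median 141.1), or 1.03 ± 0.43 (SE, adjusted p = 0.0402), with only replicate 1 above the WT range. Without QKO EpiLC replicate 1 the values were 0.65 (adjusted p = 0.183) and 0.36 (adjusted p = 0.547). mt-Rnr2 also missed the threshold without WT EpiLC replicate 3, 5, 6, 7 or 8, at 0.94 to 1.02 (adjusted p = 0.0525 to 0.0685). The WT libraries were themselves divided by replicate number: mt-Rnr1 averaged 246 ± 65.3 CPM (SD, n = 4) in WT EpiLC replicates 1 to 4 and 128 ± 17.0 CPM (SD, n = 4) in replicates 5 to 8. Against replicates 1 to 4 alone the rRNAs were not among the 10 members called, and against replicates 5 to 8 alone they were, at 1.90 and 1.52.

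Without QKO EpiLC replicate 1, 7 members were called against WT EpiLCs, where 22.1% of genes were higher. They were mt-Tl1 (1.65), mt-Nd2 (1.16), mt-Nd6 (1.14), mt-Cytb (1.08), mt-Nd5 (0.86), mt-Nd4 (0.80) and mt-Nd1 (0.75), and the 7 lost were both rRNAs, mt-Co1 and the 4 mRNAs inside the nuclear copy. On the summed scale 22 members were called without it (23.0% of genes), 11 mRNAs and 11 tRNAs, with mt-Atp8 at 1.57, mt-Co2 at 0.90 and mt-Atp6 at 0.78. mt-Co1 and both rRNAs were not among them.

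The tRNAs are given here by transcript. Whether reads were counted by strand is not stated, so reads of a light-strand tRNA may include RNA from the opposite strand. On the summed scale in QKO EpiLCs 10 of 12 heavy-strand tRNAs tested were higher with a median of 1.23, and 4 of 8 light-strand tRNAs with a median of 0.25. The highest on the heavy strand were mt-Tw (1.92), mt-Tf (1.88), mt-Tl1 (1.85) and mt-Tv (1.80). On the light strand mt-Te, the glutamate tRNA beside mt-Nd6, was at 1.83 and mt-Tq at 1.13, but the 4 tRNAs of the cluster around the light-strand origin were at 0.29 (mt-Ty), 0.21 (mt-Ta), 0.19 (mt-Tn) and 0.15 (mt-Tc), of which mt-Ty passed. Without QKO EpiLC replicate 1, 9 of the 12 heavy-strand and 2 of the 8 light-strand tRNAs were higher, with medians of 0.98 and 0.19, and mt-Ty did not pass (0.26, adjusted p = 0.0836). This cluster was singled out after its values were seen, and the difference between strands was not tested.

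On the single-alignment scale mt-Tc stood at 16.3, 20.2, 13.2 and 19.9 CPM in QKO EpiLCs against 15.7 to 19.8 CPM in WT EpiLCs, and mt-Tn at 8.06, 10.01, 5.93 and 8.55 CPM against 7.15 to 10.2 CPM. Neither separated the groups, and in QKO EpiLC replicate 1, where mt-Nd6 was at its highest, neither was raised. mt-Tp stood at 31.6, 21.6, 17.6 and 20.9 CPM against 16.0 to 23.0 CPM, with only replicate 1 above WT. mt-Tl1 stood at 4.68, 5.09, 3.27 and 4.37 CPM against 0.811 to 2.64 CPM, with no overlap and a log2 fold change of 1.69 (adjusted p = 4.85e-07).

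**Figure D4:**
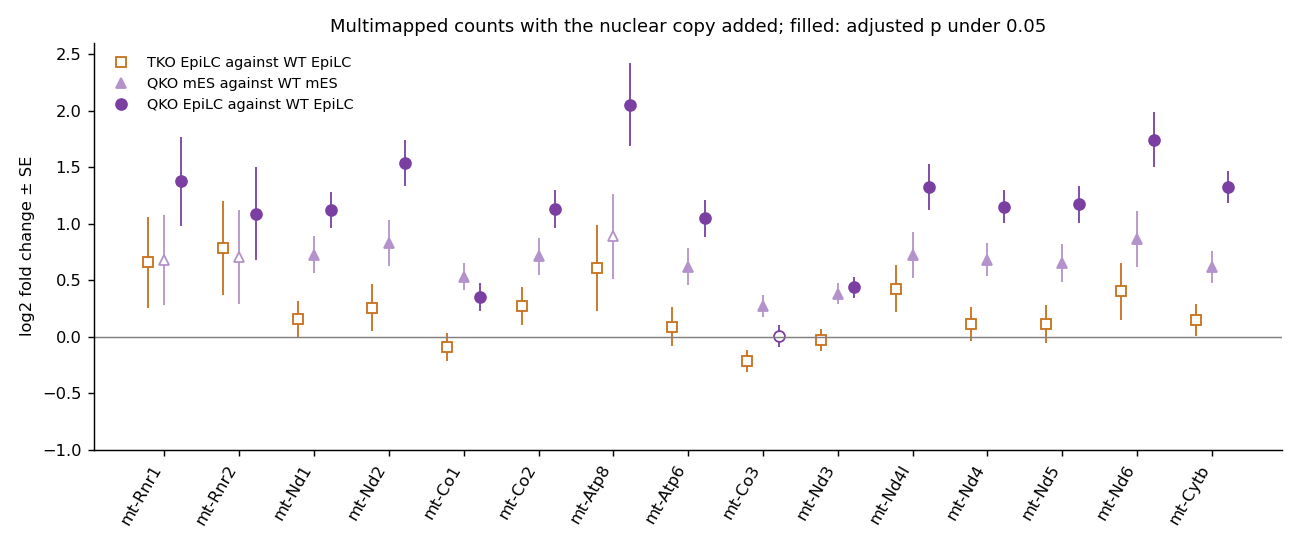
Log2 fold change ± SE on the summed scale for the 13 mRNAs and 2 rRNAs, in order along the genome, for TKO EpiLCs, QKO mES cells and QKO EpiLCs, each against WT cells of its stage (filled, adjusted p under 0.05). In QKO EpiLCs the values run from 0.00 for mt-Co3 to 2.05 for mt-Atp8, with mt-Co1 at 0.35 and mt-Nd3 at 0.44 the next lowest, and none of the 15 passed in TKO EpiLCs. mt-Atp8 has multimapped counts alone, since no nuclear copy could be added to it.

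Against TKO EpiLCs, 11 of 27 members were higher and 0 lower in QKO EpiLCs, with 18.9% of genes higher and 23.0% lower. Of the 11, 8 were past a fold of 2 (9.97% of genes), and for 10 the groups did not overlap (20.2% of genes). By library totals without TMM the split of all genes was 5955 higher and 3948 lower, from 4425 and 5389. mt-Cytb was higher by 1.16 (adjusted p = 2.54e-07), mt-Nd6 by 1.31 (adjusted p = 6.02e-04) and mt-Co1 by 0.40 (adjusted p = 0.0226), while mt-Rnr1 (0.69, adjusted p = 0.246) and mt-Rnr2 (0.24, adjusted p = 0.74) did not pass. mt-Co1 was at 0.32 (adjusted p = 0.0975) without TKO EpiLC replicate 1 and at 0.30 (adjusted p = 0.112) without QKO EpiLC replicate 1. The highest value, 2.91 for mt-Th, compares levels near 0. Without QKO EpiLC replicate 1, 9 members passed (17.3% of genes). With the nuclear copy added 22 were higher (19.1% of genes), and 14 without that replicate (18.2% of genes). mt-Co3 was at 0.22 there and did not pass.

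Whether the step from mES cells to EpiLCs differed by genotype was tested directly. In QKO cells 1 of 27 members differed from WT, where 29.8% of genes did: mt-Cytb, whose change from mES cells to EpiLCs was higher by 0.70 ± 0.20 (SE, adjusted p = 0.00586) than in WT cells, or by 0.48 (adjusted p = 0.0541) without QKO EpiLC replicate 1. On the summed scale 7 members differed (29.8% of genes): mt-Th, mt-Tf, mt-Tw, mt-Te, mt-Tl1, mt-Tt and mt-Cytb, all more positive in QKO cells by 0.71 to 1.41. In LBRKO cells 0 members passed in edgeR (0 at an unadjusted p under 0.05, 0 by DESeq2; 15.5% of genes did), and in TKO cells 0 passed (3 unadjusted, 1 by DESeq2; 8.44% of genes).

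Ratios within a library do not depend on its total. The log2 ratio of mt-Rnr2 to mt-Rnr1, the rRNAs of the large and small subunit that share a transcript, was -0.60, -0.54, -0.54 and -0.56 in QKO EpiLCs and -0.41 to -0.13 in WT EpiLCs. The groups did not overlap, the means were -0.56 ± 0.027 (SD, n = 4) and -0.25 ± 0.087 (SD, n = 8), and the difference of -0.31 had p = 0.00404 in an exact two-sided permutation test and 0.0364 after Benjamini-Hochberg adjustment over 18 ratio comparisons. The exact permutation p of 0.00404 is the smallest that 4 against 8 libraries allow. QKO EpiLC replicate 1, which stood apart in rRNA level, did not stand far apart in this ratio. Leaving out 1 library at a time gave differences from -0.34 to -0.30, with adjusted exact permutation p from 0.0410 to 0.105, and the threshold was missed in 11 of 12 cases. The groups stayed apart in each case, but fewer libraries raise the smallest p the test allows, so these misses do not measure stability. Against TKO EpiLCs the difference was -0.32 (exact permutation p = 0.0286, the smallest that 4 against 4 libraries allow, and 0.129 adjusted). What depletion removed from each rRNA can enter this ratio.

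The log2 ratio of mt-Nd6 to mt-Cytb, from opposite strands, was -4.72 ± 0.15 (SD, n = 8) in WT EpiLCs and -4.30 ± 0.26 (SD, n = 8) in WT mES cells, a difference of -0.42 (exact permutation p = 0.00311, 0.0364 adjusted). Leaving out 1 library at a time gave -0.50 to -0.38, with adjusted exact permutation p from 0.0112 to 0.0559, and the threshold was missed in 12 of 16 cases. The other 16 ratio comparisons did not pass after adjustment. Since the use of strand in counting is not stated, this ratio may count RNA from the strand opposite mt-Nd6 too. Among genes whose exons lie wholly under exons of another gene, 22.5% of 561 on the opposite strand and 27.4% of 963 on the same strand had any read, which did not separate the 2 settings.

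Among nuclear genes for the same complexes, more were lower than higher in QKO EpiLCs. Of 71 nuclear subunits of complexes I, III, IV and V tested, 4 were higher and 36 lower than in WT EpiLCs, with a median of -0.19 against -0.01 for all genes and a range from -0.80 to 0.66. Among 36 complex I subunits 1 was higher (Ndufb7, 0.64) and 18 lower (Ndufs7, -0.80). Complex III had 0 higher and 5 of 9 lower (Cyc1, the cytochrome c1 subunit, -0.70), complex IV 1 higher and 5 of 11 lower (Cox6c 0.66, Cox7a2 -0.76), and complex V 2 higher and 8 of 15 lower (Atp5mf 0.61, Atp5f1d -0.45). Complex II, with no mitochondrially encoded subunit, had 3 of 4 lower (Sdhb, its iron-sulphur subunit, -0.62).

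Among the nuclear genes that make and use mitochondrial RNA or maintain mitochondrial DNA, more were also lower than higher. Of 77 mitochondrial ribosome proteins tested, 0 were higher and 54 lower with a median of -0.33 (Mrpl9 -0.78, Mrpl44 -0.20). Of 10 genes of mitochondrial transcription, 0 were higher and 6 lower, among them Mrpl12 (-0.54) and the DNA-packaging factor Tfam (-0.19). RNA processing and stability genes had 16 of 28 lower (Trit1, a tRNA-modifying enzyme, -1.10, and Trmt5 -0.19) and tRNA synthetases 12 of 20 (Iars2 -0.67, Ears2 -0.20), with 0 higher in both. Replication and upkeep genes had 6 of 11 lower (Dguok -0.74) and 1 higher (Mgme1, 0.17).

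Of 19 genes of the mitochondrial and integrated stress response, 16 were lower and 0 higher, with a median of -0.59 (Chac1 -2.56, and the mitochondrial chaperone Hspa9 -0.24). Glycolysis genes had 19 of 22 lower with a median of -0.54 (the glucose transporter Slc2a3 -1.54) and 1 higher (Pfkp, 0.38). Of 14 apoptosis genes 3 were higher (Pmaip1, 0.39) and 4 lower (Bid, -0.57), and of 7 biogenesis regulators 1 was higher (Gabpa, 0.15) and 4 lower (Myc, -0.73). These counts stand beside 24.3% of all genes higher and 30.5% lower in this comparison. Scaled by library totals without TMM, which raised the median of all genes to 0.15, the 71 subunits had 9 higher and 19 lower (median -0.03), the mitochondrial ribosome proteins 3 higher and 37 lower (median -0.17) and the apoptosis genes 4 and 4 (median 0.05), so the direction of each list is relative to the other RNA in a library. Without QKO EpiLC replicate 1 the 71 subunits had 3 higher and 30 lower (median -0.21), with 0 and 3 in complex IV, the mitochondrial ribosome proteins 0 and 54 (median -0.34), the stress response 0 and 16, RNA processing 0 and 15, tRNA synthetases 0 and 10, and glycolysis 1 and 19.

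**Figure D5:**
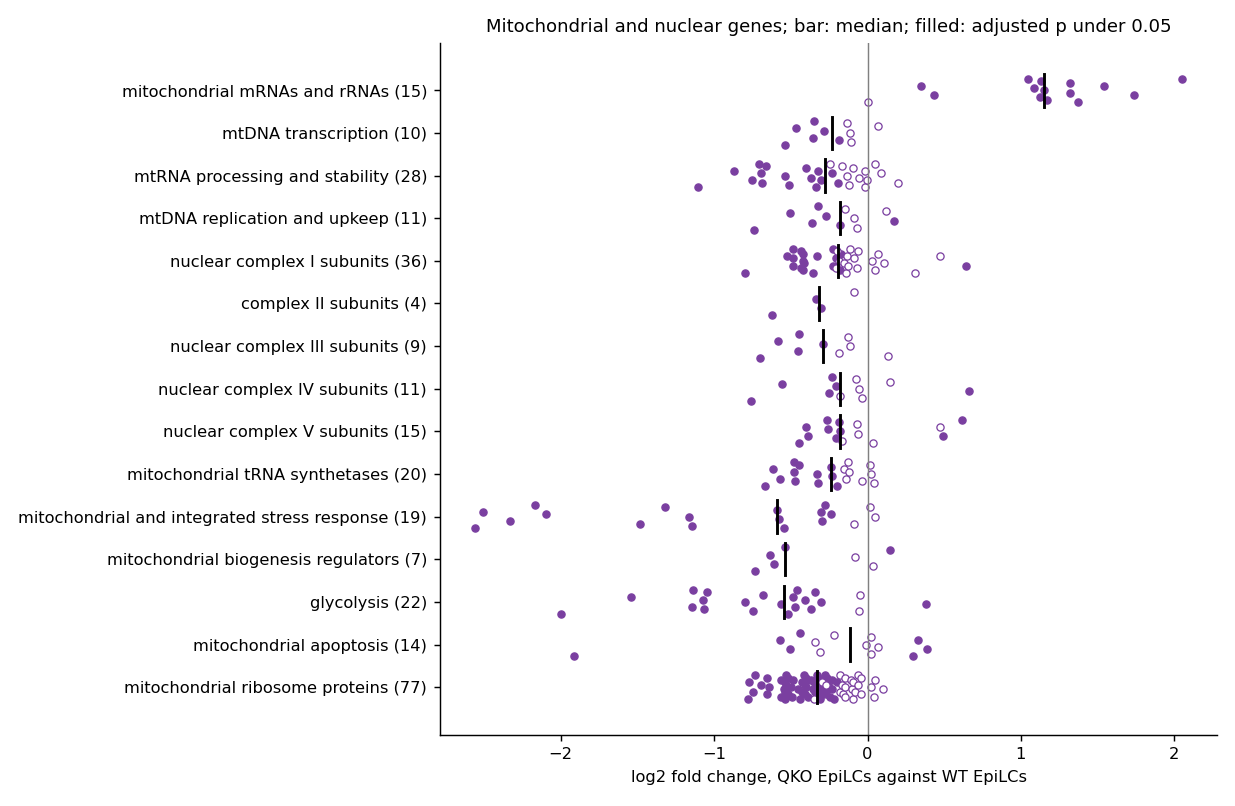
Log2 fold change of QKO EpiLCs against WT EpiLCs for the 15 mitochondrial mRNAs and rRNAs (summed scale) and for nuclear gene lists (single-alignment scale), each point a gene tested, bar the median (filled, adjusted p under 0.05). The mitochondrial mRNAs and rRNAs have mt-Nd4 in the middle at 1.15, and the 77 mitochondrial ribosome proteins one of -0.33.

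The nuclear lists differed in the other comparisons. In QKO mES cells 1 of the 71 subunits was higher and 24 lower (median -0.15), mitochondrial ribosome proteins had 1 higher and 30 lower (median -0.17, Mrpl33 -0.86 and Mrps7 0.18), and the stress response 0 higher and 16 lower (median -0.57, Phgdh, a serine synthesis enzyme, -1.14), where 21.0% of all genes were higher and 23.5% lower. In LBRKO mES cells, where 1 mitochondrial member passed, 1 of the 71 subunits was higher and 25 lower (median -0.20; all genes 12.7% and 11.2%). In LBRKO EpiLCs 4 were higher and 9 lower (all genes 11.0% and 14.2%), in TKO mES cells 2 and 4 (8.09% and 13.2%), and in TKO EpiLCs 3 and 3 (4.63% and 10%), so these shares of the 71 did not exceed those of all genes. From WT mES cells to WT EpiLCs 2 were higher and 43 lower (median -0.22), while mitochondrial ribosome proteins had 24 higher and 14 lower and glycolysis genes 13 higher and 6 lower (Slc16a3 4.66, Hk1 -3.00), where 35.8% of all genes were higher and 28.6% lower.

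Other measures of the QKO EpiLC libraries stand beside these values. The paper reports severely impaired survival in QKO EpiLCs and a moderate decrease in LBRKO and TKO EpiLCs. Its part in the mitochondrial values was not tested. The 6 primed epiblast markers summed to 2457 to 2589 CPM in QKO EpiLCs against 3372 to 4115 CPM in WT EpiLCs, without overlap. Of these 6, the de novo methyltransferase gene Dnmt3b had a median of 1697 against 3084 CPM and Sox3 of 49.9 against 57.2, whereas Fgf5 (179.4 against 146.6), Otx2 (165.7 against 118.1), Pou3f1 (230.4 against 227.8) and Sall2 (199.8 against 194.7 CPM) had higher medians in QKO EpiLCs. The 8 naive markers summed to 153.8 to 181.9 CPM, inside the WT range of 120.8 to 186.7 CPM. Transposable elements took 13.5% to 14.3% of the multimapped counts in QKO EpiLCs and 7.12% to 10.2% in WT EpiLCs, and reads on L2 and MIR elements, old repeats that lie mostly in introns and between genes, came to 9104 to 9557 reads per 1000000 gene counts against 6243 to 8426. The 7 primitive endoderm markers summed to 10.5 to 15.2 against 12.2 to 15.4 CPM, overlapping ranges in which the median of Gata6 was 3.10 against 0.353 and that of Pdgfra 2.14 against 0.425 CPM, while Dab2 (2.202 against 6.63) and Sox7 (0.116 against 0.622 CPM) had lower medians. The 6 fibroblast markers summed to 9.69 to 10.3 against 18.5 to 24.1 CPM, with Postn at a median of 0. The part of these differences in the mitochondrial values was not tested.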

How the data were processed

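RNA was measured in 40 libraries, and each library was placed in its group from its title. The authors trimmed reads with cutadapt 2.5, aligned them to GRCm39 with STAR 2.7.10a, handled alignments with SAMtools 1.10 and deposited raw counts per GENCODE M30 gene from featureCounts 1.6.4 for reads with a single alignment. They also deposited counts from reads with up to 100 alignments, shared out by TEcount over genes and transposable elements. Whether counting used strand is not given in the sources used here. No columns of results were used, and 0 columns of per-sample values were left unmatched.

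Gene names came from GENCODE M39, which named 56017 of 56748 gene IDs and gave all 37 mitochondrial genes the same span as the deposited table. Copies of the mitochondrial genome in GRCm39 were found with BLAST 2.17.0 (at least 100 bases, and 99% identity for near-identical copies): 3 of 35 nuclear matches were near-identical and together covered 5147 of 16299 bases. Sequences were read from that genome.

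Counts were tested with edgeR 4.0.16 (R 4.3.3): TMM scaling, filterByExpr, 1 mean per group over all 40 libraries and the quasi-likelihood test, with Benjamini-Hochberg adjustment over all 23399 genes tested (25490 on the summed scale). A gene was called at an adjusted p under 0.05, and the SE of a log2 fold change was derived from the F statistic. Of the members, 27 were tested on the single-alignment scale; the 10 tRNAs too low for the test were mt-Tf, mt-Tv, mt-Ti, mt-Tw, mt-Ts1, mt-Td, mt-Tk, mt-Tg, mt-Tr and mt-Te. On the summed scale 35 were tested, all but mt-Td and mt-Tr. Ratios of 2 members within a library were compared with exact two-sided permutation tests, in which 4 against 8 libraries cannot go below 0.00404. On simulated counts for QKO against WT EpiLCs over 23399 genes, edgeR called 65.7% of genes changed 1.5-fold, 92.5% changed 2-fold and 100% changed 4-fold, and 0.0302% of unchanged genes. The changed genes averaged over 1 CPM, with a spread typical of their level and no library set apart. These rates therefore do not describe the tRNAs near 0 or the rRNAs.

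Named were every mitochondrial gene, with values in every library (or lowest, median and highest) for the rRNAs, mt-Nd6, the highest and lowest mRNA called per comparison and tRNAs of at least 10 CPM in a group, and, per nuclear list, called genes with the highest and lowest fold change at 5 CPM or more. The members and lists were chosen with earlier results of these data known. Alternatives were another filter, scaling, read table, set of WT libraries and group selection, a replicate block, DESeq2 1.42.0 and leaving out each library.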

Additional observations from a re-analysis of the deposited data

Results flagged for a closer look

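In 13 of 104 groups of 4 or 8 libraries that were checked, 1 library lay farther from the others than Dixon's test allows at the 95% level, where chance gives about 1 in 20. They fell on 4 libraries. Several measures share reads, as the rRNA share holds mt-Rnr1 and mt-Rnr2, so the checks are not independent. The 13 cannot therefore be set against that rate.

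TKO mES replicate 1 had 0.0825% of its gene counts on mitochondrial rRNA (the others 0.0518% to 0.0560%) and 397.7 CPM of mt-Rnr2 (the others 220.2 to 243.7).

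LBRKO EpiLC replicate 4 was high in complex I mRNAs, with 1209 CPM of mt-Nd1 (the others 766.1 to 827.3), 771.5 CPM of mt-Nd5 (438.7 to 468.6) and 56.7 CPM of mt-Nd6 (24.3 to 28.6).

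TKO EpiLC replicate 1 had 0.127% of its gene counts on mitochondrial rRNA (the others 0.0270% to 0.0398%), with 627.2 CPM of mt-Rnr1 (162.5 to 214.7) and 634.4 CPM of mt-Rnr2 (116.3 to 185.5). It was also high in mt-Nd6 at 60.9 CPM (24.6 to 26.7), so that its log2 ratio of mt-Nd6 to mt-Cytb was -3.51 (the others -4.96 to -4.86), and low in mt-Nd4 at 254.0 CPM (363.7 to 381.3).

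QKO EpiLC replicate 1 had 1399 CPM of mt-Nd5 (the others 709.9 to 795.7) and 168.5 CPM of mt-Nd6 (50.1 to 60.7).

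Between genotypes, mt-Cytb differed in its change from mES cells to EpiLCs: it was more positive in QKO than in WT cells by 0.70 on the log2 scale, by the interaction term of edgeR's quasi-likelihood test. It was the 1 member of 27 called, where 29.8% of all genes were, and it did not pass without QKO EpiLC replicate 1.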

How the results depend on the processing

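Values below are numbers of members called against WT cells of the same stage unless stated, and the stage difference of a genotype is its change from mES cells to EpiLCs compared with that of WT. The share of all genes called is not given for most of these settings, so a count that moved cannot be set against it. With no filter on low counts, 11 were called between the WT stages and 5 in the QKO stage difference. The multimapped table gave 14 (WT stages), 0 (LBRKO mES), 1 (TKO mES), 4 (LBRKO EpiLC), 2 (TKO EpiLC, 1 higher and 1 lower), 28 (QKO EpiLC, 27 higher and 1, mt-Co3, lower at -0.47), 0 (QKO against TKO mES), 22 (QKO against TKO EpiLC), 1 (LBRKO stage difference) and 7 (QKO stage difference), and adding the nuclear copy, chosen after seeing the data, gave 15, 0, 2, 4, 1, 28, 0, 22, 1 and 7 in the same order, with 17 for QKO mES and 1 for the TKO stage difference. mt-Th in TKO EpiLCs, at -2.98 in the report, turned to 0.026 on both. Adding the copy and leaving out QKO EpiLC replicate 1 gave 22 (QKO EpiLC) and 3 (QKO stage difference). Leaving out QKO and TKO EpiLC replicate 1 together gave 7 (QKO EpiLC). Library totals without TMM gave 1 (TKO mES) and 4 (QKO stage difference). WT replicates 1 to 4 alone gave 3 (WT stages), 1 (LBRKO EpiLC), 0 (TKO EpiLC) and 2 (QKO stage difference), and WT replicates 5 to 8 alone 1 (TKO mES), 0 (LBRKO EpiLC) and 2 (TKO EpiLC). Fitting only the groups compared gave 1 (TKO mES), 0 (TKO EpiLC), 7 (QKO against TKO mES), 1 (TKO stage difference) and 2 (QKO stage difference), and DESeq2 gave 1 (TKO stage difference). The cause of these shifts was not tested.

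Replicate numbers were not taken to pair libraries: deviations of same-numbered WT libraries of the 2 stages correlated at 0.0072 to 0.451, and in no comparison was every pair over 0.1. With a replicate block, 12 were called between the WT stages, 3 in LBRKO mES (1 higher, 2 lower), 4 in TKO mES, 5 in LBRKO EpiLC, 1 in TKO EpiLC (higher, in place of 1 lower), 10 in QKO against TKO mES (9 higher, 1 lower), 1 in the TKO and 5 in the QKO stage difference. With it mt-Nd4l in QKO EpiLCs was at 0.84 (adjusted p = 0.157) and mt-Atp8 in QKO mES cells at 0.91 (adjusted p = 0.0549).

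Leaving out 1 library at a time gave 6 to 8 (WT stages), 0 to 2 (LBRKO mES), 0 to 1 (TKO mES), 8 to 11 (QKO mES), 0 to 3 (LBRKO EpiLC), 0 to 1 (TKO EpiLC), 7 to 15 (QKO EpiLC), 0 to 1 (QKO against TKO mES), 9 to 13 (QKO against TKO EpiLC), 0 to 1 (LBRKO and TKO stage differences) and 0 to 4 (QKO stage difference).

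The log2 ratio of mt-Rnr2 to mt-Rnr1 in QKO EpiLCs kept its direction at -0.26 (multimapped), -0.27 (WT replicates 1 to 4) and -0.36 (WT replicates 5 to 8) but missed the threshold, as did mt-Nd6 to mt-Cytb between WT stages at -0.36, -0.51 and -0.34. With those WT sets 4 libraries met 4, where no exact permutation p can go below 0.0286. The misses with them were thus set in part by the number of libraries. On multimapped counts the mt-Rnr2 to mt-Rnr1 ratio still separated QKO EpiLCs (-0.55 to -0.41) from WT EpiLCs (-0.35 to -0.088). Its exact permutation p was therefore again the smallest possible, and the miss arose in the adjustment. For QKO mES the first ratio changed sign to 0.018 (multimapped) and 0.0047 (WT replicates 5 to 8), and for TKO EpiLC to -0.035 (WT replicates 5 to 8). Leaving out 1 library gave 0.13 to 0.19 (WT stages), -0.057 to 0.051 (QKO mES), -0.16 to 0.054 (LBRKO EpiLC), -0.075 to 0.092 (TKO EpiLC) and -0.34 to -0.30 (QKO EpiLC) for the first ratio, and -0.50 to -0.38 (WT stages), -0.060 to 0.053 (QKO against TKO mES), -0.18 to 0.31 (TKO EpiLC) and -0.10 to 0.46 (QKO against TKO EpiLC) for the second. The mitochondrial share in the multimapped table was 1.06% (TKO mES), 0.761% (WT EpiLC) and 0.779% (TKO EpiLC). Counts of a few reads limit the tRNAs, 10 of which could not be tested on the single-alignment scale.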
